A study of Mus musculus with 80 samples.

Results

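Single male germ cells with the highest Pou5f1 level were compared with those with the lowest, among 71 cells of the neonatal mouse testis (postnatal day 5.5). The 20 cells with the highest and the 20 with the lowest Pou5f1 CPM (counts scaled to each cell's total) were selected on that measured value, so 40 of the 71 cells form the comparison and 31 lie between. Every cell came from the strain B6;CBA-Tg(Pou5f1-EGFP)2Mnn/J, which carries green fluorescent protein under Pou5f1 regulatory sequence, and was sorted as fluorescent and negative for the receptor KIT. High and low cells therefore share strain, age, transgene, sex (male) and sorting gate, and both groups already passed a gate on the Pou5f1 reporter. Cells were captured on a Fluidigm C1 machine and sequenced from Nextera XT libraries. No animal is named for any cell, so the 71 cells count as 1 sample, no p-value was made, and every difference below is a description of these cells. The table heads its columns P6 where the sample titles say P5.5, and cells were matched by their number. The other 9 samples of the series, which are sorted pools and an siRNA pair, were not analysed here.

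Pou5f1, also called Oct4, is a transcription factor with a POU domain that binds an octamer DNA motif, often together with SOX2. It maintains pluripotency in the early embryo and in embryonic stem cells, and it is kept in the germ line after other lineages lose it. In the neonatal testis it marks undifferentiated spermatogonia, the pool that holds spermatogonial stem cells. These cells depend on GDNF and FGF signals for self-renewal, and retinoic acid drives them to differentiate and to gain KIT.

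Pou5f1 itself ranged from 15.4 to 74.9 CPM in the high cells, with a median of 24.6. In the low cells it ranged from 0 to 1.47 CPM, with a median of 0.498, and 7 low cells were listed at exactly 0. Just inside the limits were cell 63 at 15.4 CPM and cell 37 at 1.47 CPM, and just outside them were cell 18 at 15.3 CPM and cell 69 at 1.64 CPM. The levels form a slope with no gap at either limit, and these values chose the groups.

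**Figure D1:**
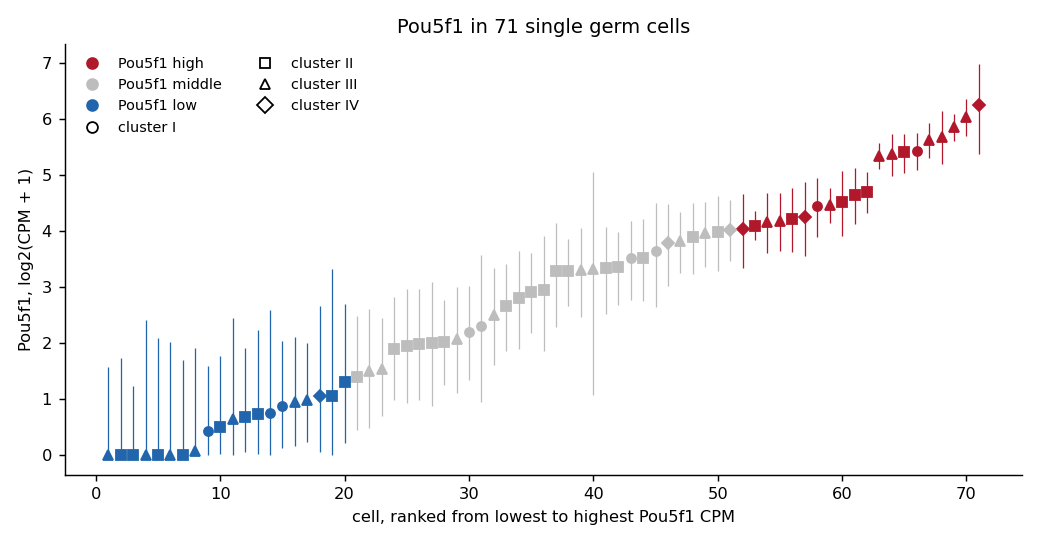
Pou5f1 level of the 71 cells as log2(CPM + 1), ranked from lowest to highest, with colour for the group, marker shape for the cluster the authors deposited, and lines for exact 95% Poisson intervals of the count, which cover counting error only. The intervals of the low cells reach into the range of the middle cells, and cell 7 at the far right has the highest level from 13.6 counts.

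Few reads stand behind some of these levels. The high cells had between 13.6 and 140 expected Pou5f1 counts, and the low cells between 0 and 2.66. The upper Poisson bound of 19 low cells lay above the lowest level of the middle group, and that of 0 low cells above the lowest high cell. When all cells were thinned to 182150 counts, as many as the shallowest one had, 27 cells held no Pou5f1 count. Groups chosen after that thinning kept 15 of the 20 high and 12 of the 20 low cells. The 27 cells without a count were tied at 0, and the first 20 of them in column order formed the low group. That low group took in cell 33, a high cell, and the 12 cells kept depend on column order as well as on depth. Total counts had a median of 1543808 (range 182163 to 6802787) in the high cells and of 1533776 (range 530042 to 2744965) in the low cells. The median number of genes with an expected count of at least 1 was 10556 against 10262. The 2 groups thus had like depths, while the high group holds the shallowest and the deepest of all cells.

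Both groups drew on all 4 clusters that the authors deposited. Cluster I held 2 high and 3 low cells, cluster II 6 and 9, cluster III 9 and 7, and cluster IV 3 and 1. Median Pou5f1 was 3.95, 5.69, 8.94 and 15.4 CPM over the 9, 32, 24 and 6 cells of clusters I to IV. The ranges overlapped widely, since clusters II and III each ran from 0 to above 40.

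The deposited position code of a cell, a letter A to H with a number, moved with Pou5f1. Of the 20 high cells, 15 had letters A to D and 5 had letters E to H, while 6 and 14 of the low cells did. The 37 cells with letters A to D had a median of 10.4 CPM (range 0 to 74.9), and the 34 cells with letters E to H a median of 2.81 CPM (range 0 to 48.4). Median depth was 1585930 and 1599114 counts in these sets. What the letters stand for in the experiment is not given in the sources used here, and their part in the results below was not tested. Differences within each set of letters are given for the genes described most fully, and beside other named genes past the fold where they came to under 0.5 in the same direction or changed sign. They rest on 15 high and 6 low cells for A to D, and on 5 high and 14 low cells for E to H.

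**Figure D2:**
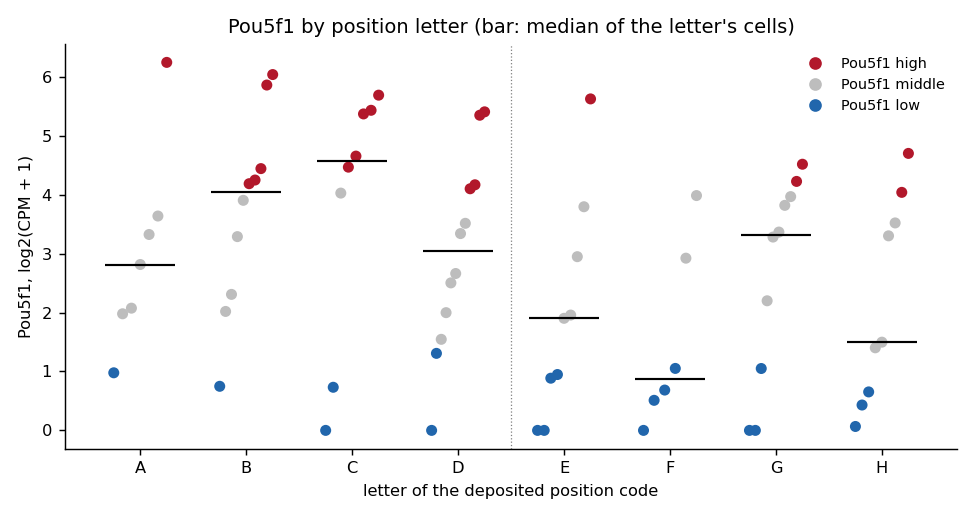
Pou5f1 as log2(CPM + 1) in each cell by the letter of its position code, with colour for the group and a bar at the median of each letter. The letters B and C have the highest medians, at 15.6 and 22.7 CPM, and the letters F and H the lowest, at 0.84 and 1.82 CPM.

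The germ cell label was checked first. Ddx4, which encodes an RNA helicase of germ cells, ranged from 186 to 1600 CPM (median 689) in high cells and from 118 to 1249 CPM (median 738) in low cells. Dazl, an RNA-binding regulator of germ cells, had a mean log2(CPM + 1) of 11.18 ± 0.35 in the high and 11.17 ± 0.29 in the low cells (SD, n = 20 cells each). Sall4 and Zbtb16, transcription factors of undifferentiated spermatogonia, had a count in every one of the 40 cells and differed by 0.10 and 0.00 on the log2 scale. All 40 cells thus carried Ddx4, Dazl, Sall4 and Zbtb16, at levels that differed by far less than the spread between cells. Of the other germ cell markers checked, Dmrt1 had a count in all 40 cells and differed by 0.41. Dnd1 had a count in 17 high and 20 low cells and differed by -1.21.

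Several defining somatic markers were at or near 0 in both groups, while others were counted in some cells. Amh, Fshr and Dhh of Sertoli cells, Cyp11a1, Cyp17a1, Insl3 and Lhcgr of Leydig cells, and C1qa, C1qb and C1qc of macrophages had no expected count of 1 or more in any of the 40 cells. Of the 14 Sertoli genes 4 were tested and 0 passed the fold in either direction, and their summed level ran from 0.9 to 181 CPM in high and from 0.5 to 178 CPM in low cells. The macrophage and leukocyte sum ran from 7.7 to 70.2 CPM in high and from 3.3 to 164 CPM in low cells, with 0 of 4 tested genes past the fold. Medians of these sums were 15.7 against 13.7 and 33.5 against 31.4 CPM. Leydig markers had a median sum of 16.3 against 43.6 CPM, and the list holds Star and Fads1, genes that other cells express too. Peritubular, endothelial, stromal and erythroid lists had 1, 1, 2 and 0 tested genes with 0 past the fold, and median sums of 13.4, 1.81, 9.47 and 0 CPM in high and of 3.29, 0.855, 5.06 and 0 CPM in low cells. Some listed genes were counted in most cells of both groups, such as Sox9 (18 high and 17 low cells), Cx3cr1 (20 and 20) and Itgam (18 and 18). Wt1, Myh11, Tagln and Col1a2 were counted in 4 high cells and 1 low cell each and Cnn1 in 5 and 1, whereas Cd68 was counted in 2 and 7 and Csf1r in 4 and 7. Gata4 was counted in 8 and 7. The part of other cell types in the results was not tested beyond these values. Kit, whose product was the negative sorting marker, still had a count in 9 high and 11 low cells.

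Over all genes, 12943 had an expected count of at least 1 in at least 18 of the 71 cells and were described as the difference in mean log2(CPM + 1), high minus low. A difference of at least 1, which is 2-fold on this scale, was reached by 594 genes in the higher direction (4.59% of those tested) and by 722 in the lower direction (5.58%). The median difference was 0.034 and the standard deviation of the differences was 0.60. No gene other than Pou5f1 separated the groups: in 0 of the 12943 did the ranges not overlap. The spread between cells was larger than most differences, with a median pooled SD of 2.31 among the 1316 genes past the fold. The difference exceeded that gene's own pooled SD for 44 of the 1316, 29 of them higher and 15 lower. A gene "past the fold" below is thus a statement on means, within which single cells overlap.

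The 31 cells between the groups, which the rule left out, have Pou5f1 levels of their own. Within them Spearman's correlation with Pou5f1 was positive for 42.8% of the higher genes, 35.6% of the lower genes and 38.7% of all genes tested (n = 31 cells, which share the total that scales every CPM). Most higher genes therefore had no positive correlation with Pou5f1 among the cells of intermediate level. The same held for 61.3% of all tested genes, so the higher genes were near the share of all genes.

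The 15 leading higher genes had diverse roles. Apba2, which encodes an adaptor that binds the amyloid precursor protein, ranged from 0 to 386 CPM (median 22) in the high cells and from 0 to 83.4 CPM (median 0) in the low cells. It had a count in 16 of 20 high cells (80%, exact Clopper-Pearson 95% interval 56.3% to 94.3%) and in 6 of 20 low cells (30%, 11.9% to 54.3%), or 13 and 3 after thinning. Its mean log2(CPM + 1) was 3.89 ± 2.65 against 0.87 ± 1.66, a difference of 3.02, with 3.25 within letters A to D and 3.52 within E to H. Intervals of this kind treat the 20 cells of a group as independent draws, and no animal is named for them. At this depth Apba2 was counted in most high cells and not counted in most low cells, yet the ranges overlapped.

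Hsdl1, a hydroxysteroid dehydrogenase-like gene, had a count in nearly every cell, so that its difference was one of level. It ranged from 9.33 to 1059 CPM (median 370.0) in the high cells and from 0 to 541 CPM (median 100.3) in the low cells. The difference was 2.41 over all 40 cells, 1.05 within letters A to D and 3.15 within E to H. Of the 20 high cells 19 lay above the median of the low cells.

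Nt5c2, a cytosolic nucleotidase that acts on purine nucleotides, ranged from 0.839 to 515 CPM (median 77.6) in high and from 0 to 91.7 CPM (median 7.49) in low cells. The difference was 2.59, and it was 2.58 within letters A to D and 2.29 within E to H. Serinc5, a multipass membrane protein known as a factor that restricts retroviruses, differed by 2.99 (2.78 and 2.82 within the letter sets). Klhdc4, a kelch domain gene, differed by 2.68 (2.56 and 1.55). The other leading higher genes with a known role covered tight junctions (Cgn, 2.35), transport from endoplasmic reticulum to Golgi (Mcfd2, 2.32), casein kinase 1 delta (Csnk1d, 2.32), a mitochondrial import pore paralogue (Tomm40l, 2.30) and endosomal sorting (Stam, 2.23). Lyst, which encodes a regulator of lysosome size, differed by 2.27 (0.86 within letters A to D), the kinase gene Tnik by 2.26, the muscle protein gene Mypn by 2.28 and the sterol transport gene Gramd1b by 2.21 (0.21 within letters E to H). AU024582, for which no role is given here, differed by 2.45.

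**Figure D3:**
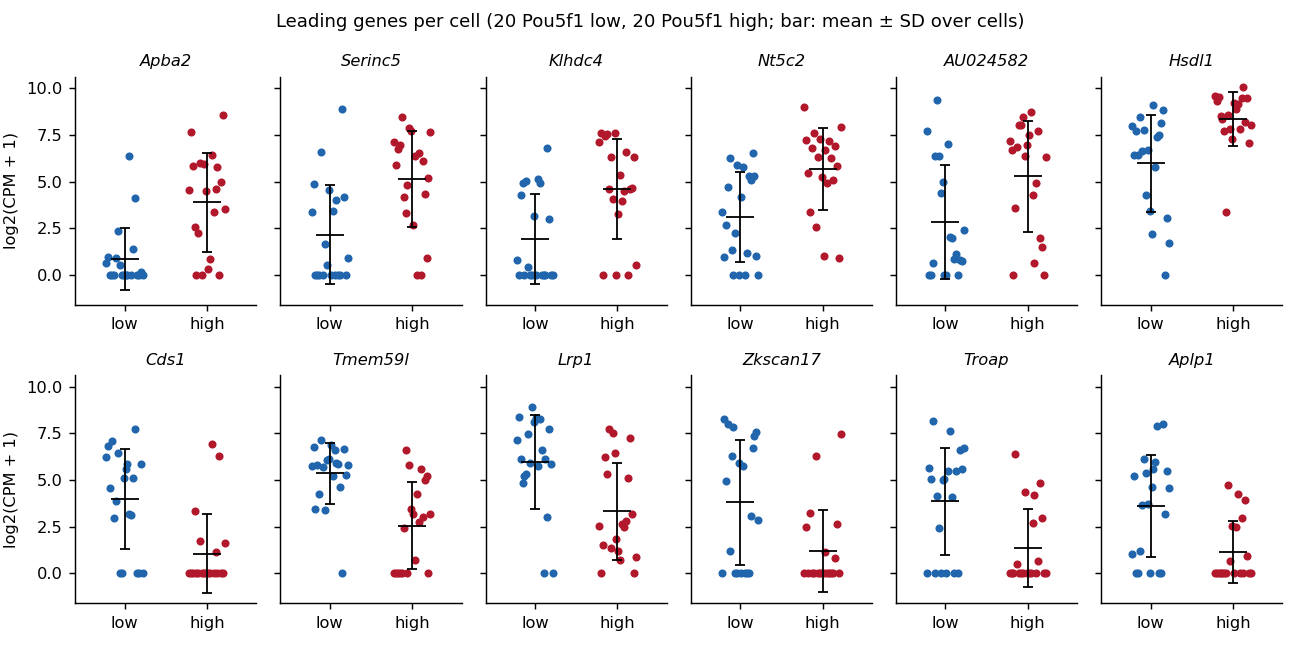
Level per cell as log2(CPM + 1) of the 6 leading higher genes (top) and the 6 leading lower genes (bottom), with 20 Pou5f1 low and 20 Pou5f1 high cells each and a bar for the mean ± SD over cells. In every panel the groups overlap, and many cells lie at or near 0. No count of at least 1 was found for Apba2 in 14 low cells and for Cds1 in 14 high cells.

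The 15 leading lower genes were as diverse. Cds1, which encodes an enzyme that makes CDP-diacylglycerol for phospholipid synthesis, ranged from 0 to 120 CPM (median 0) in high cells and from 0 to 215 CPM (median 27.8) in low cells. A count was found in 6 of 20 high cells (30%, interval 11.9% to 54.3%) and in 15 of 20 low cells (75%, 50.9% to 91.3%), or 5 and 14 after thinning. The difference was -2.93, with -4.39 within letters A to D and -1.84 within E to H. At this depth Cds1 was not counted in most high cells, and 2 high cells lay above the median of the low cells.

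Tmem59l, a transmembrane protein gene, ranged from 0 to 96 CPM (median 6.42) in high and from 0 to 140 CPM (median 55.2) in low cells. The difference was -2.81, and -3.21 and -2.01 within the letter sets, but -0.56 within cluster II. Lrp1, an endocytic receptor for lipoproteins, ranged from 0 to 208 CPM (median 4.97) against 0 to 490 CPM (median 68.4). Its difference was -2.62, with -2.81 and -2.58 within the letter sets. Among the 31 cells between the groups, Tmem59l and Lrp1 had a Spearman's rho with Pou5f1 of -0.43 and -0.51. These examples were chosen after their values were seen. There 10 of the 15 leading lower genes had a negative rho, where 61.3% of all tested genes were at 0 or below, and 8 of the 15 leading higher genes had a positive one, where 38.7% did.

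Troap, which encodes a cytoskeletal protein of dividing cells, had a count in 6 high and 14 low cells and differed by -2.52. Amyloid precursor relative Aplp1 (-2.45, and -0.67 within letters A to D), lipid transporter Abca2 (-2.44), transcription factor Bnc1 (-2.36) and adhesion receptor Lphn2 (-2.33) followed. Hsd17b4, an enzyme of peroxisomal fatty acid oxidation, differed by -2.27 and the endophilin gene Sh3gl1 by -2.26. The vesicle GTPase gene Rab31 (-2.26), the neuronal gene Sez6 (-2.23) and the zinc finger gene Zkscan17 (-2.59) were also among them. Rab31 differed by -0.46 within letters E to H, and Zkscan17 by -0.38 within cluster II and -1.20 within letters E to H. Within letters A to D, Sez6 differed by -0.01, against -3.83 within letters E to H.

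Pou5f1 binds the octamer, written ATGCAAAT, and promoters of the named genes were searched for it on both strands, from 250 bases before to 50 after the start. RefSeq promoters of build GRCm38.p6 were found for 88 of the 115 named genes that were tested, and 2 of them held the octamer. The sequences are shown because the genes lie on opposite sides of the comparison, each read along its gene's strand with the octamer in capitals. Zkscan17 (lower in high cells, chr11:59506636-59506675, minus strand) holds it in the sense direction, and Lgr4 (higher in high cells, chr2:109917582-109917621, plus strand) on the opposite strand.
Zkscan17: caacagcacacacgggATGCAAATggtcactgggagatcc
Lgr4: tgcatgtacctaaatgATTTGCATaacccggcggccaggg
Of the first listed promoters of all 27025 genes in that table, 1.75% held the octamer. Higher and lower genes were not compared, since 79.1% and 78.5% of them had a promoter in the table, below the 80% set as a minimum. A match is a stretch of letters and no measure of binding.

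Over all 71 cells, the genes most like Pou5f1 were ranked by Spearman's correlation of CPM among 10098 genes with a count in at least 36 cells. Hsdl1 was the most like (rho 0.46), then 1700065D16Rik (0.44), the noncoding RNA Dnm3os (0.43), Nt5c2 (0.42), D330045A20Rik (0.41), Piga (0.41), Serinc5 (0.40), Klhdc4 (0.40), Zic1 (0.39) and Zbtb43 (0.39). Least like were 1700123J19Rik (-0.54), Tmem59l (-0.51), the translation termination factor gene Gspt1 (-0.43), EG433885 (-0.42) and Lrp1 (-0.40). The middle 95% of the genes lay between -0.249 and 0.244, so these are the ends of a broad distribution. The points share each cell's total and include the 40 cells of the comparison. Dnm3os lies antisense to Dnm3, and the library kit does not mark strand, so their reads cannot be told apart where they overlap.

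Among these, 1700123J19Rik ranged from 0 to 16.3 CPM (median 2.61) in high and from 2.88 to 86.5 CPM (median 17.6) in low cells. All 20 low cells lay above the median of the high cells, and the difference of -2.44 was -2.12 and -2.91 within the letter sets. Gspt1 ranged from 2.5 to 323 CPM (median 84.7) in high and from 77.4 to 433 CPM (median 172) in low cells. Its low cells were tightly grouped, at 7.52 ± 0.72 on the log2 scale against 5.84 ± 1.72 in the high cells. Piga, an enzyme of GPI anchor synthesis, differed by 2.11, the zinc finger genes Zic1 and Zbtb43 by 1.54 and 1.66, with Zic1 at 0.56 after thinning.

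Pluripotency genes as a group had a median difference near that of all genes. Of 34 listed genes 21 were tested, of which 1 was past the fold in the higher direction and 0 in the lower, against 4.59% and 5.58% of all genes. The median difference was 0.08 against 0.034 over all genes. The single gene past the fold was Lin28b, a repressor of let-7 microRNA maturation, at 0 to 389 CPM (median 43.3) in high and 0 to 294 CPM (median 15.2) in low cells. Its difference of 1.01 was 2.18 within letters A to D, -0.25 within E to H and 0.96 without the 4 cells of cluster IV. Lin28a, its paralogue, differed by 0.52, Tfcp2l1 by 0.91 and Stat3, the mediator of LIF signals, by 0.93.

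Nanog, a partner of Pou5f1 in embryonic stem cells, had a count in all 40 cells and differed by 0.03. Processed copies of Nanog and of Pou5f1 exist in the mouse genome, so how reads were split among copies is uncertain for both. Sox2 had a count in 2 high cells and 1 low cell, Esrrb in 2 and 2, and Nr0b1 in 0 and 0. The RNA-binding gene Trim71, a target of let-7, was at a mean of 10.5 against 10.0 on the log2 scale, a difference of 0.52.

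The tested POU genes lay above 0 without passing the fold, and the SOX genes split. Of 14 POU genes 4 were tested, all above 0, with 0 past the fold in either direction and a median of 0.67. Beside the lists of this paragraph, 4.59% of all genes were higher and 5.58% lower past the fold. Pou4f1, a factor best known from sensory neurons, ranged from 0.693 to 450 CPM (median 40.3) in high and from 1.46 to 213 CPM (median 15.3) in low cells, a difference of 0.93. Among 8 tested SOX genes, Sox11 was higher by 1.22 and Sox13 lower by -1.40, but Sox11 differed by -2.17 within cluster II, 3.99 within cluster III and -0.10 within letters E to H. SALL4 and its NuRD corepressor partners had a median of 0.06 over 17 tested genes. Sall1, a relative of Sall4, was the gene past the fold there, with a count in 19 high and 14 low cells and a difference of 1.54, which was 2.07 and 2.15 within the letter sets.

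Among genes of stem cell self-renewal and of the GDNF and FGF response, 1 gene was higher past the fold and the others past it were lower. Of 20 tested self-renewal genes, 3 were lower and 1 higher past the fold, with a median of -0.25. Of 15 tested GDNF and FGF response genes, 5 were lower and 0 higher, with a median of -0.21. Over all genes 5.58% were lower, against 5 of 15 here. That count of 5 was 3 after thinning or without cluster IV, and within cluster II it was 2, with a list median of 0.17. The lists share members, Etv5 among them, and the lists were chosen with results of these cells known.

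Etv5, a transcription factor that GDNF induces and stem cells need, ranged from 0 to 1111 CPM (median 135) in high cells and from 0 to 1327 CPM (median 299) in low cells. A count was found in 15 of 20 high cells (75%, interval 50.9% to 91.3%) and 19 of 20 low cells (95%, 75.1% to 99.9%). The difference was -1.81 with a pooled SD of 3.22, and it was -0.34 within cluster II and -1.96 within cluster III. The difference was thus smaller than the spread, and it came with more high cells in which Etv5 was not counted.

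Etv4, its relative, had a count in 11 high and 17 low cells and a difference of -1.52, but 0.19 within cluster II. Ccnd1, cyclin D1, ranged from 0 to 353 CPM (median 97.9) in high and from 25.9 to 408 CPM (median 182) in low cells. Its difference of -1.38 was -0.70 without the 4 cells of cluster IV and -0.09 within cluster II. Dusp5 and Spry4, feedback inhibitors of ERK signalling, differed by -1.14 and -1.08, and Dusp5 by -0.15 within letters A to D, 0.00 within cluster II and -0.90 after thinning. Spry4 was at 0.81 within letters E to H, 0.97 within cluster II and -0.85 after thinning. In all 40 cells the related Dusp6 and Spry2 differed by 0.23 and 0.40. The GDNF receptor genes went apart, with Gfra1 at -0.84 and Ret at 0.11.

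Tcl1, a coactivator of AKT, ranged from 0 to 530 CPM (median 32.2) in high and from 0 to 430 CPM (median 88.4) in low cells. Its difference was -1.62, with -2.10 and -2.16 within the letter sets and -0.61 within cluster II. Among the 31 cells between the groups its rho with Pou5f1 was -0.41. Egr2, an early response factor, differed by -1.41, but 0.02 within cluster II, -0.41 within letters A to D and -0.81 without cluster IV. Id4, Foxo1 and Zbtb16, which also mark or maintain stem cells, differed by 0.18, 0.05 and 0.00. Eomes, a T-box factor found in a subset of stem cells, had a count in 10 high and 4 low cells and was the gene higher past the fold, at 1.01, but at 0.65 after thinning and 0.35 within cluster III.

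AKT and FOXO pathway genes had a median of -0.62 over 16 tested, where all genes had a median of 0.034. Past the fold 4 were lower and 1 higher, against 5.58% and 4.59% of all genes. Pik3cb, a catalytic subunit of PI3 kinase, was at -1.57 and the kinases Akt1 and Akt2 at -1.23 and -1.14. Mtor, listed as Frap1, was the higher gene, at 1.29, and ranged from 4.16 to 832 CPM (median 202) in high and from 0 to 564 CPM (median 163) in low cells. The direction of the list depended on the cells, since its median was 0.17 within cluster III, where Akt1 differed by 1.25. Without cluster IV Akt1 was at -0.85, and within cluster II Akt2 was at -0.46.

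Progenitor genes had higher means in the high cells. All 5 tested genes of 8 lay above 0, with 3 higher and 0 lower past the fold and a median of 1.07, where 4.59% of all genes were higher. That median was 0.24 within cluster II, 1.37 within cluster III and 0.53 over all 8 genes without the filter, and 2 of the 5 were higher without cluster IV. Upp1, uridine phosphorylase, had a count in 10 of 20 high cells (50%, interval 27.2% to 72.8%) and 6 of 20 low cells (30%, 11.9% to 54.3%), with a difference of 1.39 that was 0.15 within cluster II. Rarg, the retinoic acid receptor of spermatogonia that are ready to differentiate, had a count in 9 and 4 cells and a difference of 1.30, which was 0.98 after thinning and 0.24 within cluster II. Sohlh1, a bHLH factor of differentiation, ranged from 0 to 218 CPM (median 49.9) against 0 to 281 CPM (median 16.9), a difference of 1.07. Sohlh1 differed by 3.01 within letters A to D and -0.43 within E to H. Neurog3, the usual marker of progenitors, had a count in 1 high and 0 low cells, and Sox3 in 6 and 3.

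Differentiation genes were split. Of 11 tested, 3 were higher past the fold (Sall1, Rarg and Sohlh1) and 2 lower, against 4.59% and 5.58% of all genes. The median was 0.05. Kit ranged from 0 to 25.4 CPM (median 0.802) in high cells and from 0 to 303 CPM (median 1.59) in low cells. Its difference of -1.40 was 0.03 within letters A to D, -2.74 within E to H and -0.15 within cluster III, and the highest Kit levels were in low cells. Ccnd2, cyclin D2, ranged from 20.3 to 2361 CPM (median 806) in high and from 32 to 3798 CPM (median 1478) in low cells, a difference of -1.16. That difference was -0.78 without cluster IV and -0.17 within cluster II, and the 3 high cells of cluster IV had a median of 21.8 CPM. Stra8, a target of retinoic acid, had a count in 12 cells of each group.

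**Figure D4:**
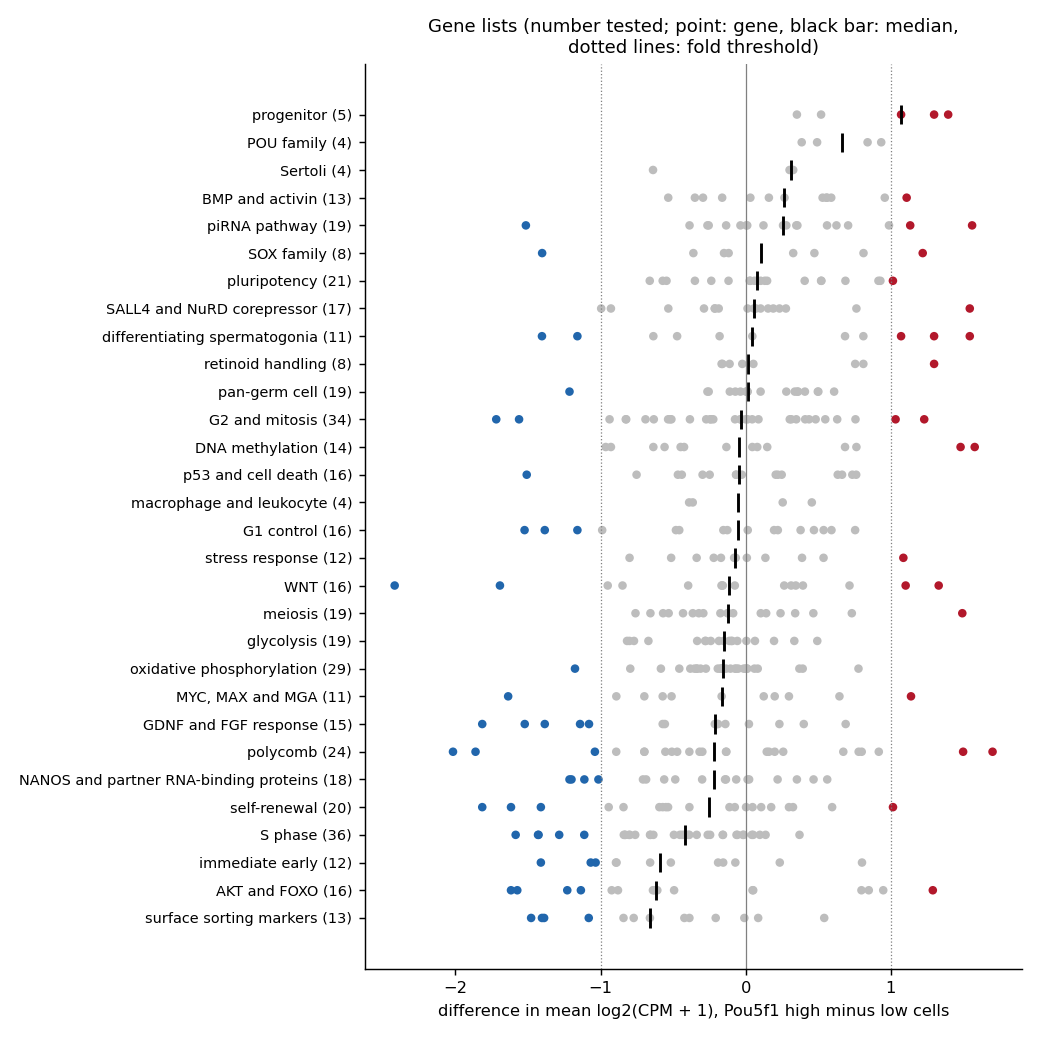
Difference in mean log2(CPM + 1) between Pou5f1 high and low cells for every tested gene of the 30 lists with at least 3 tested genes, with red for genes at 1 or above, blue for genes at -1 or below, and a black bar at the list's median. List medians run from -0.66 (surface sorting markers) to 1.07 (progenitor), and genes on both sides of 0 are found in all lists but the POU family and progenitor lists.

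Replication genes had slightly lower means in the high cells. Of 36 tested S phase genes, 31 lay below 0 (86.1%, against 47.1% of all genes tested), and the median was -0.42. Past the fold 5 were lower, against 5.58% of all genes, and 0 higher. Without cluster IV 2 were lower. Prim1, the primase subunit, ranged from 0.729 to 252 CPM (median 83.7) in high and from 23.7 to 322 CPM (median 109) in low cells. The clamp loader subunit Rfc3 ranged from 0 to 242 CPM (median 40.6) in high and from 19.9 to 186 CPM (median 82.2) in low cells. Both differed by -1.43, cyclin E1 (Ccne1) by -1.58, the origin licensing gene Cdc6 by -1.28 and thymidine kinase (Tk1) by -1.11. Without cluster IV Rfc3 was at -0.88, Cdc6 at -0.97 and Tk1 at -0.80, while Prim1 was at -0.27 within cluster II and Ccne1 at 0.05 within letters A to D. Mcm3, Mcm4 and Pcna, with counts in all 40 cells, differed by -0.16, -0.02 and -0.16. The list's mean level was 6.42 ± 0.92 in high and 6.91 ± 0.52 in low cells, so high cells varied more. Its median was -0.25 without cluster IV, -0.10 within cluster III, and -0.27 and -0.96 within the letter sets.

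Mitotic genes did not share a direction over all high and low cells. Of 34 tested, 2 were lower and 2 higher past the fold, against 5.58% and 4.59% of all genes, with a median of -0.04. Within cluster III, 11 were lower and 1 higher (median -0.68), against 10.1% and 14.7% of all genes. Within letters E to H, 11 were lower and 2 higher (median -0.49), against 14.6% and 11.8%. Within cluster II, 4 were lower and 3 higher (median -0.0009), against 10.2% and 11.7% of all genes. Within letters A to D, 2 were lower and 3 higher (median 0.06), against 10.6% and 11.7%. Aurora kinase B (Aurkb) ranged from 0.40 to 232 CPM (median 35.4) in high and from 0.939 to 458 CPM (median 100.3) in low cells. Its difference of -1.72 stayed between -1.68 and -2.06 within clusters II and III and within both letter sets. Polo-like kinase 1 (Plk1) differed by -1.56, and the midbody motor gene Kif23 and the kinetochore gene Ndc80 by 1.23 and 1.03, with Ndc80 at 0.98 without cluster IV and 0.45 within cluster II. Of the G1 regulators Rbl1, a pocket protein that restrains E2F, differed by -1.52.

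Germ cell RNA regulators and chromatin genes also split. NANOS partner and other RNA-binding genes had 4 lower and 0 higher of 18 tested, against 5.58% and 4.59% of all genes. The 4 were the NANOS2 partner Dnd1 (-1.21), the deadenylase subunits Cnot8 (-1.20) and Cnot6l (-1.01), and the translational repressor Pum2 (-1.11). The list's median was -0.22. Dnd1 was at -0.61 without cluster IV and 0.05 within cluster III, and Cnot6l at -0.23 within cluster II and -0.37 within letters E to H. In the piRNA pathway, which silences transposons, Tdrd5 was higher by 1.56 and Tdrd12, listed as 2410004F06Rik, by 1.13, while Tdrd7 was lower by -1.51. Within cluster II these were at 0.43, 0.45 and 0.06, and Tdrd7 was at -0.48 within letters E to H. Tdrd12 was in 20 high cells at a minimum of 30.9 CPM and in 19 low cells.

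Among polycomb genes, 3 were lower and 2 higher of 24 tested, against 5.58% and 4.59% of all genes. Pcgf2, a RING finger subunit of polycomb repressive complex 1, ranged from 0 to 6.14 CPM (median 0) in high cells and from 0 to 76.8 CPM (median 3.55) in low cells. It had a count in 2 of 20 high cells (10%, interval 1.23% to 31.7%) and 13 of 20 low cells (65%, 40.8% to 84.6%), or 1 and 9 after thinning. The difference of -2.02 exceeded its pooled SD of 1.49, and it was -3.47 and -1.60 within the letter sets. Its paralogue Pcgf3 went the other way, by 1.70 (0.09 within letters E to H), with Phc2 at 1.5, and Kdm2b, listed as Fbxl10, was at -1.86. The dioxygenase gene Tet3, listed as D230004J03Rik, was higher by 1.58. The DNA methylation list had 2 higher and 0 lower of 14 tested (median -0.04), against 4.59% and 5.58% of all genes.

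Among signalling and surface genes, the WNT receptors divided. Fzd5 and Fzd7 were lower by -2.42 and -1.69, and the coreceptor genes Lgr4 and Lrp6 higher by 1.33 and 1.10. Fzd5 was at -0.78 within letters A to D, and Lrp6 at 0.66 after thinning. Surface sorting markers had 4 lower and 0 higher of 13 tested, against 5.58% and 4.59% of all genes. Their median was -0.66, and 2 were lower without cluster IV. Mcam ranged from 0 to 607 CPM (median 61.6) in high and from 0 to 524 CPM (median 152) in low cells, a difference of -1.48 that was -0.13 within cluster II, -0.40 within letters A to D and -0.83 without cluster IV. The integrin genes Itga6 and Itgb1, used to enrich stem cells, differed by -1.39 and -1.08, but Itga6 by 0.41 within letters E to H, and Itgb1 by -0.98 without cluster IV and -0.46 within cluster II. Plaur, which encodes CD87, had a count in 6 high and 9 low cells and differed by 0.09.

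Immediate early genes had 3 lower and 0 higher of 12 tested, against 5.58% and 4.59% of all genes. Their median was -0.59, with 0.14 within cluster II. The BMP receptor gene Bmpr2 was higher by 1.11, but at 0.80 without cluster IV, 0.03 within cluster II and -0.74 within letters E to H. Metabolic, stress and cell death lists had few genes past the fold, where 4.59% of all genes were higher and 5.58% lower. The stress list had 1 higher and 0 lower of 12 tested, and the cell death list 0 and 1 of 16, with medians of -0.07 and -0.05. Glycolysis had 0 of 19 past the fold, and oxidative phosphorylation had 0 higher and 1 lower of 29. Of these genes, 14 of 19 and 22 of 29 lay below 0, against 47.1% of all genes tested. Their medians were -0.15 and -0.16, against 0.034 over all genes. The chaperone gene Hsph1, listed as Hsp110, was at 1.09, but at 0.91 without cluster IV and -1.36 within cluster III. The MAX network genes Mnt, a repressor, and Mycl1 were at -1.64 and 1.14 (Mycl1 at 0.14 within letters E to H), and the cohesin gene Rec8, listed as Rec8L1, was at 1.49. Rec8 was at 0.82 after thinning. With groups chosen after thinning, where column order broke the ties at 0, Rec8 was at -0.01. Rec8 was the gene past the fold among 19 tested meiosis genes, whose median was -0.13. General germ cell genes had a median of 0.01 over 19 tested, and Dnd1 was the gene past the fold. Beside both lists, 4.59% of all genes were higher and 5.58% lower.

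**Figure D5:**
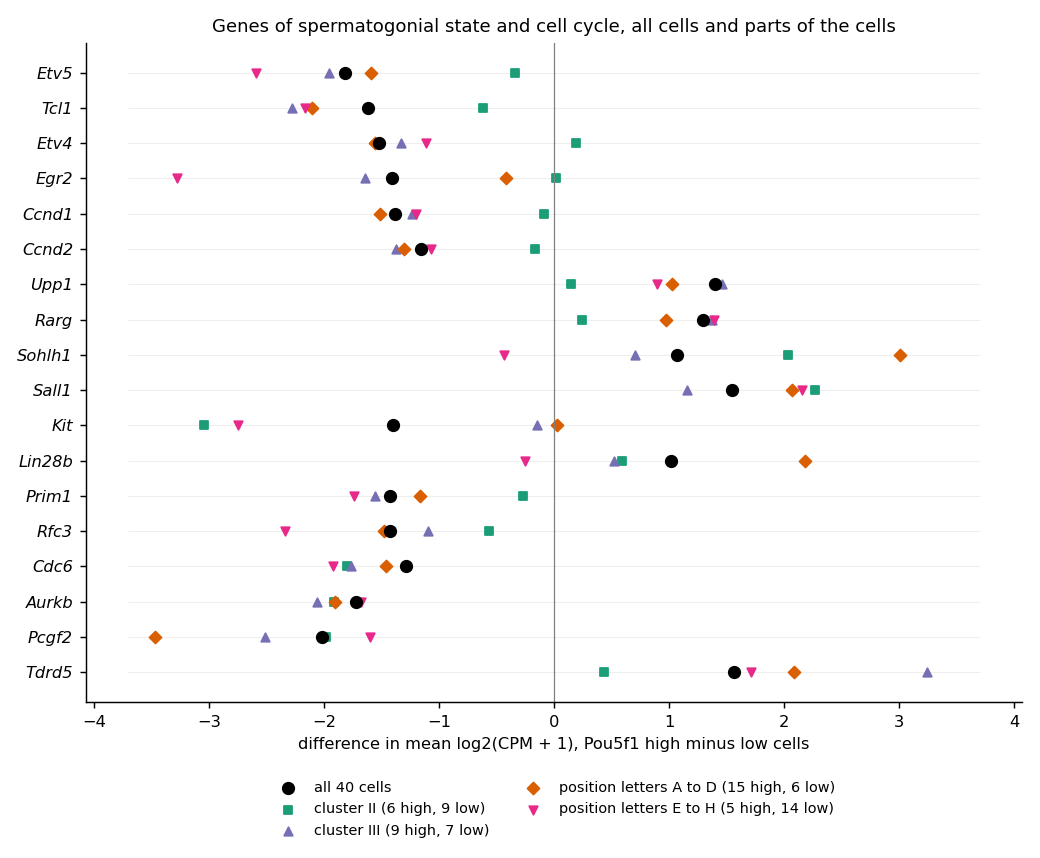
Difference in mean log2(CPM + 1), Pou5f1 high minus low, for 18 genes over all 40 cells (black) and within cluster II, cluster III, letters A to D and letters E to H. Etv4, Egr2, Sohlh1, Kit and Lin28b cross 0 in at least 1 of these sets, and Aurkb, Pcgf2 and Cdc6 stay on 1 side.

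Within parts of the same 40 cells most genes past the fold kept their direction. Of the 594 higher genes 89.4% kept their sign within cluster II, 95.1% within cluster III, 95.5% within letters A to D and 88.4% within letters E to H. Of the 722 lower genes 88.0%, 91.3%, 94.5% and 93.5% did. These sets are parts of the cells that chose the genes, so the shares follow from that choice to an extent that was not measured. No such share is given for all tested genes, and these shares are no sign of stability. Of the 63 named genes past the fold other than the leading ones, 49 stayed past it without cluster IV, 56 after thinning, 36 within cluster II, 46 within letters A to D and 48 within letters E to H. With groups chosen after thinning, where column order broke the ties at 0, 27 stayed past it. The genes next to Pou5f1 in the RefSeq order were rarely counted, and only Tcf19, an adjacent gene, was tested, with a count in 45 of the 71 cells and a difference of 0.60. Cchcr1 had a count in 11 cells and H2-Q10 in 0 of the 40.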

How the data were processed

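RNA of 71 single cells was analysed. The authors deposited expected counts per gene, estimated with Salmon after trimming with Trim Galore on mouse build mm9, per the submitters' processing notes; which versions and which annotation is not given in the sources used here. The table has 27128 gene rows, of which 22 had become dates and were left out (at most 0.609% of a cell's counts). Further rows of the table gave the cluster and the position code.

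CPM was computed from each cell's remaining total. Genes with an expected count of at least 1 in at least 18 cells were described as mean log2(CPM + 1), with the SD over 20 cells a group. CPM is not adjusted for gene length, so levels are compared within a gene only, and CPM under 0.005 is written as 0. Fractional counts were rounded only for thinning. Named genes were the 15 highest and 15 lowest differences that kept their sign after thinning and within clusters II and III (predicted loci left out), up to 4 genes past the fold per list (the 2 largest where none was), the 10 genes most and 5 least like Pou5f1, and its neighbours; others are named as examples chosen after their values were seen. The members, lists and rules were chosen with earlier results of these data known. Of 644 entries in 35 lists, 596 matched a symbol directly, 43 through an older symbol in a RefSeq table (GRCm38.p6, names only), and 5 did not match. A few genes that these rules name are not reported here.

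Only the computation of the differences was checked on simulated counts, with folds planted in genes of higher count. That check does not bear on how many genes pass the fold. Python 3.11.15, pandas 2.3.3, scipy 1.17.1 and R 4.3.3 with edgeR 4.0.16 (library sizes by the TMMwsp method, an alternative) were used. The alternatives by cluster IV and by position letters were added after the data were seen, as was the check in the 31 cells between the groups.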

Additional observations from a re-analysis of the deposited data

How the results depend on the processing

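No paired analysis was possible because no result comes from a test and the cells carry no pairing. The share of genes past the fold depended on the settings. With 4.59% higher and 5.58% lower as reported, the shares were 0.579% and 0.873% with a pseudocount of 10, and 2.82% and 3.34% without a filter. With 25 cells a group 2.74% were higher, and with the ratio of mean CPM 7.36% were. Within fewer cells more genes passed. The higher and lower shares were 11.7% and 10.2% in cluster II, 14.7% and 10.1% in cluster III, 11.7% and 10.6% in letters A to D, and 11.8% and 14.6% in letters E to H. Of the other shares, all stayed within 1.5 times the reported ones.

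The medians of 30 lists under 14 alternatives gave 420 values. Of these, 411 were counted as moving by less than the spread between cells, 2 as moving further and 7 as reversed. The list medians counted as reversed were piRNA pathway (-0.17, letters E to H), AKT and FOXO (0.17, cluster III), immediate early (0.14, cluster II) and Sertoli (-0.10, cluster II). So was BMP and activin, at -0.040 with 25 cells a group, -0.17 in cluster II and -0.74 in letters E to H. Other list medians also crossed 0 and are not among the 7, such as GDNF and FGF response (0.17, cluster II) and cell death (0.35, cluster II). Polycomb (0.20, cluster III) and differentiating spermatogonia (-0.43, letters E to H) did too. The 30 leading genes were chosen for keeping their sign after thinning and within clusters II and III, so their values are no sign of stability. The other 85 named genes gave 1175 values, of which 1155 were counted as moving by less than that spread, 4 as moving further and 16 as reversed. Of the 63 among them past the fold, 14 stayed past it with a pseudocount of 10 and 33 with the ratio of mean CPM. The 16 reversed values are all of genes past the fold. Named genes short of the fold crossed 0 too, such as Aldoc (0.97, cluster III), Fads1 (0.87, cluster II) and Tcf19 (-0.53, letters E to H). In cluster II the genes counted as reversed were Sox11 (-2.17), Egr2 (0.019), Etv4 (0.19), Tdrd7 (0.064) and Fosl2 (0.39). In cluster III they were Dnd1 (0.047), Akt1 (1.25) and Hsp110 (-1.36). In letters E to H they were Lin28b (-0.25), Sox11 (-0.10), Sohlh1 (-0.43), Bmpr2 (-0.74) and Itga6 (0.41), and in letters A to D Kit (0.028) and Ccne1 (0.047). With groups chosen after thinning, where column order broke the ties at 0, it was Rec8L1 (-0.013). The cause was not tested. Depth limits the low group most, where a Pou5f1 count of 0 has an exact 95% Poisson upper bound of 3.69 counts.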
